A study of Homo sapiens with 38 samples.

Results

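The HOXA cluster is a run of homeobox genes on human chromosome 7, and 9 of its genes were followed through neural induction of H9, a widely used line of human embryonic stem cells. The 9 genes (HOXA2, HOXA3, HOXA4, HOXA5, HOXA6, HOXA7, HOXA9, HOXA10 and HOXA11) were taken by gene symbol from the 58219 genes of the deposited table. In the GENCODE v29 annotation on GRCh38 they lay on the minus strand of chr7:27100354-27185223, a stretch of 84.9 kb, in the order in which they are listed here. Other genes of the cluster were not analysed here.

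All libraries came from wild-type H9 cells, with 2 libraries in each of 19 groups, which the submitters call biological replicates. On day 8 and on day 4 there were 9 conditions: the WNT activator CT (the labels leave the name unexpanded) at 4.0 µM with retinoic acid (RA) at 1.0 µM (CT4.0RA), CT alone at 0.4, 0.8, 1.0, 2.0, 3.0 or 4.0 µM (CT0.4 to CT4.0), the WNT secretion inhibitor IWP2 at 2.0 µM, and untreated cells (CT0.0). Undifferentiated cells at day 0 were the remaining group. Groups are written with the day first, as in D8 CT4.0. The series set out to give progenitors regional identities along the head-to-tail axis, with RA added to 4.0 µM CT for a spinal cord fate.

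HOX proteins are transcription factors that tell cells where they lie along the head-to-tail axis. Within a cluster the genes are used in their chromosomal order: the genes at the HOXA2 end mark the hindbrain, the middle genes the neck and trunk levels of the spinal cord, and the genes at the HOXA11 end the most caudal levels. WNT and FGF signals, partly through the CDX transcription factors, and retinoic acid, through receptors that bind DNA near the HOXA2 end, are the known inputs to this order.

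The libraries correlated at 0.958 to 0.972 within groups (Pearson's r of log2(TPM + 1), where TPM is the length-corrected share of a library's transcripts that a gene takes), and 33 of 38 were closest to the other library of their own group. Those that were not were 1 D8 CT4.0 library and both libraries each of D4 CT3.0 and D8 CT0.0, which were closest to a neighbouring condition of the same day. The labelled cell type was checked against neural progenitor markers. SOX2 stood at 141 to 259 TPM in the CT3.0 and CT4.0 libraries, whereas SOX1 was at most 1.94 TPM and PAX6 1.2 to 6.8 TPM there, against 13.4 and 14.2 TPM of SOX1 and 95.1 and 126 TPM of PAX6 in D8 CT0.0. In CT4.0RA cells PAX6 was 167 to 327 TPM and SOX1 0.521 to 3.68 TPM. The labels name 2 sequencing instruments without saying which library ran on which, so the part of the instrument in any difference was not tested.

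Start regions of 4 members are shown because the results turn on them: HOXA2 opened first, HOXA4 opened at 3.0 µM CT and stayed on with RA, and HOXA7 and HOXA9 opened at 3.0 µM CT and were close to absent with RA. Each line gives 300 bases of RefSeq sequence (GRCh38.p14, minus strand), from 250 bases before the start of a transcript to 50 after it, and capitals mark TTTATG or TTTATT on either strand, letters that CDX proteins bind. The windows are chr7:27102634-27102933 (HOXA2), chr7:27130708-27131007 (HOXA4), chr7:27156626-27156925 (HOXA7) and chr7:27165488-27165787 (HOXA9).
HOXA2: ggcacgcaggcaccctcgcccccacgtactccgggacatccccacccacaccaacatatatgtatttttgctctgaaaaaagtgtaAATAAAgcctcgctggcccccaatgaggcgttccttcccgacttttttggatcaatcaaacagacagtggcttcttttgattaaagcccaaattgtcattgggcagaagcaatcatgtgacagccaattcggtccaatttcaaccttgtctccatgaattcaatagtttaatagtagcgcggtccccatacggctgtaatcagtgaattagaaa
HOXA4: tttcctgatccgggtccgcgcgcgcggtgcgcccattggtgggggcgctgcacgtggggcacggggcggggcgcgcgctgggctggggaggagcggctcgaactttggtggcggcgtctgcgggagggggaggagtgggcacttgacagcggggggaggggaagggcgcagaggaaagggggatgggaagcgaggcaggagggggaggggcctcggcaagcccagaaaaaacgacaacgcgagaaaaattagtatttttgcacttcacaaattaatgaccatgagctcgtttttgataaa
HOXA7: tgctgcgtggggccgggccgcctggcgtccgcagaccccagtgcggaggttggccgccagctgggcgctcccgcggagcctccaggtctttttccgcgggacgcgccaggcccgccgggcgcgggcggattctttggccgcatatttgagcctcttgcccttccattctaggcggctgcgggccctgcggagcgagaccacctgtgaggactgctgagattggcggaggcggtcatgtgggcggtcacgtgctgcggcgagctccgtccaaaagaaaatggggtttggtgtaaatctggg
HOXA9: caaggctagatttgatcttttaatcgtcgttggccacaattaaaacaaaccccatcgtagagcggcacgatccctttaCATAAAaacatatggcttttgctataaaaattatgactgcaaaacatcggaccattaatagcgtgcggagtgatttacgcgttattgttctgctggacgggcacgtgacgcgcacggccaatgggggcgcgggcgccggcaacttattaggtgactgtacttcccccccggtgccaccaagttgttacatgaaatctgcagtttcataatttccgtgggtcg
Promoter sequences matched 8 of the 9 members, with HOXA5 missing, and gave 15 windows because HOXA3 has 7 starts and HOXA10 has 2. The CDX letters stood in 7 of the 15 windows, against 24.3% of 35116 human promoters, and all but 2 of those 7 belonged to HOXA3. CTTTGAT or CTTTGTT on either strand, the letters bound by the TCF factors of WNT signalling, stood in 1 window, of HOXA10, against 7.61% of promoters. Pairs of AGGTCA or AGTTCA or GGGTCA or GGTTCA in direct repeat with 1, 2 or 5 bases between them, the form bound by RA receptors, stood in 0 windows, against 0.259% of promoters. These are matches of letters within 300 bases and were not related to the levels by any test.

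**Figure D1:**
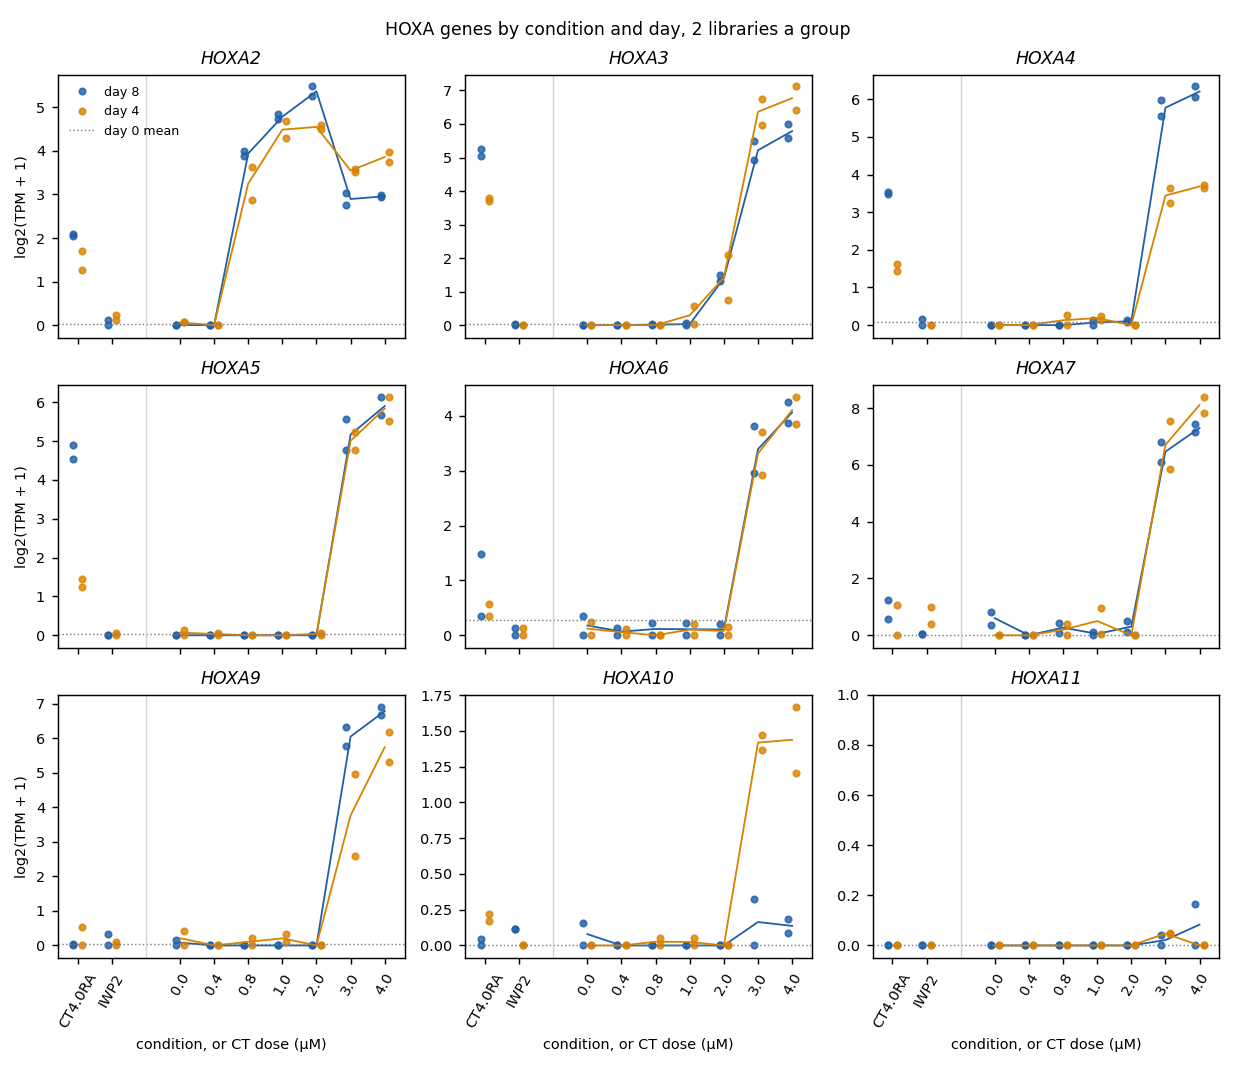
Level of each HOXA gene (log2(TPM + 1), vertical axis, scaled per gene) in CT4.0RA, IWP2 and the 7 CT doses (horizontal axis), with day 8 in blue and day 4 in orange. Points are the 2 libraries of a group, lines join the dose means, and the dotted line is the day 0 mean; HOXA2 peaks at 2.0 µM CT while HOXA3 to HOXA9 lie near 0 up to 1.0 µM and are high at 3.0 and 4.0 µM.

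At CT doses up to 0.4 µM the cluster was below 1 TPM throughout. In the day 0 cells and in the IWP2, CT0.0 and CT0.4 cells of both days, 7 groups with 14 libraries, no member reached 1 TPM, the highest value being 0.973 TPM for HOXA7 in 1 D4 IWP2 library. A difference was called where limma's adjusted p (Benjamini-Hochberg, over the 28221 genes reaching 1 TPM in 2 or more libraries) was under 0.05 and the change was at least 1 on the log2(TPM + 1) scale. HOXA11, the most caudal gene of the set, was above 0 in 4 of 38 libraries with a maximum of 0.122 TPM, so 8 of the 9 members were tested. IWP2 against untreated cells called 0 members on either day by limma, and 0 at an unadjusted p under 0.05, where of all genes 0.195% were called higher and 0.23% lower on day 8, and 0.159% higher and 0.124% lower on day 4. At CT0.4 the count against untreated cells was also 0 on both days, at an unadjusted p under 0.05 too, where 3.55% (day 8) and 0.659% (day 4) of all genes were called higher.

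HOXA2, which gives the second pharyngeal arch and the rostral hindbrain their identity, opened first and alone. On day 8 it stood at 13.7 and 15.0 TPM in CT0.8, 25.6 and 27.6 TPM in CT1.0, and 43.6 and 37.2 TPM in CT2.0. On day 4 the values were 6.28 and 11.4 TPM in CT0.8, 18.5 and 24.8 TPM in CT1.0, and 21.7 and 23.2 TPM in CT2.0. All of these libraries lay above both untreated libraries of their day, where HOXA2 was listed at 0 (day 8) or at 0.0432 and 0.0434 TPM (day 4). The difference between CT0.8 and untreated cells was 3.18 ± 0.19 (log2, SE) on day 4 (limma adjusted p = 8.92e-11), and on day 8 its limma adjusted p was 1.36e-12. HOXA2 was the 1 member of 8 called higher at CT0.8 on each day, against 1.97% (day 8) and 1.18% (day 4) of all genes, and again at CT1.0, against 1.79% and 1.44%. From CT0.8 to CT2.0 it made up 92.1 to 99.3% of the summed TPM of the 9 genes as a group mean, and 87.4% in the second D4 CT2.0 library, the lowest single library.

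The step from CT0.8 to CT1.0 called HOXA2 higher on day 4 (1.24 ± 0.19, limma adjusted p = 0.000515), 1 of 8 members against 0.191% of all genes, but not without the first D4 CT0.8 library (0.86). On day 8 that step called 0 members by limma (1 at an unadjusted p under 0.05), against 1.66% of all genes, HOXA2 changing by 0.85 ± 0.19. Between the days HOXA2 differed by 0.69 ± 0.19 at CT0.8, below the size threshold, so that 0 members were called higher (1 at an unadjusted p under 0.05), against 3.84% of all genes, with 1 called when the second D4 CT0.8 library was left out.

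HOXA2 was lower at 3.0 µM CT, the dose at which HOXA4 to HOXA9 opened. It stood at 5.79 and 7.15 TPM in D8 CT3.0 and at 6.92 and 6.63 TPM in D8 CT4.0, below every D8 library from CT0.8 to CT2.0. On day 4 it was 10.5 and 10.9 TPM in CT3.0 and 12.5 and 14.6 TPM in CT4.0, below both CT2.0 libraries. Between CT3.0 and CT2.0 HOXA2 fell by 2.47 ± 0.19 on day 8 (limma adjusted p = 9.36e-10) and by 1.00 ± 0.19 on day 4 (limma adjusted p = 0.000821). The day 4 difference sits at the size threshold, and it was 0.98 or 0.96 lower when the first D4 CT3.0 or the second D4 CT2.0 library was left out.

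HOXA3, a gene of the caudal hindbrain, opened next, with traces at CT2.0. It stood at 1.49 and 1.79 TPM in D8 CT2.0 and at 0.691 and 3.22 TPM in D4 CT2.0, and was listed at 0 in untreated cells of both days. It was called higher than in untreated cells on both days (limma adjusted p = 0.00203 on day 8 and 0.00171 on day 4), so that 2 of 8 members were higher at CT2.0 against 2.06% (day 8) and 2.1% (day 4) of all genes. The day 4 call rests on the second D4 CT2.0 library: without it the adjusted p was 0.0924 and 1 member was higher. Between CT2.0 and CT1.0 HOXA3 was the 1 member called higher on each day, against 0.687% (day 8) and 1.08% (day 4) of all genes, and neither call held without the second CT2.0 or the second CT1.0 library of its day. At the next dose HOXA3 reached 29.5 and 44.3 TPM in D8 CT3.0 and 61.8 and 107 TPM in D4 CT3.0, and the difference between CT3.0 and CT2.0 was 3.82 ± 0.31 on day 8 (limma adjusted p = 2.08e-09) and 4.94 ± 0.31 on day 4 (limma adjusted p = 9.37e-11).

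HOXA4 and HOXA5, genes of the hindbrain to spinal cord border and the cervical cord, were near 0 at 2.0 µM CT and well expressed at 3.0 µM. HOXA4 stood at 46.1 and 62.7 TPM in D8 CT3.0, against 0.0516 and 0.0973 TPM in D8 CT2.0, a difference of 5.67 ± 0.17 (limma adjusted p = 7.91e-16). On day 4 it was 8.52 and 11.4 TPM in CT3.0 and listed at 0 in CT2.0 (limma adjusted p = 1.23e-12). HOXA5 stood at 26.2 and 46.5 TPM in D8 CT3.0 and was listed at 0 in D8 CT2.0 (limma adjusted p = 1.05e-13). Its D4 CT3.0 values were 26.3 and 36.9 TPM, against 0.045 and 0 TPM in D4 CT2.0 (4.97 ± 0.23, limma adjusted p = 5.59e-13). In neither gene did the CT3.0 and CT2.0 libraries overlap on either day.

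The trunk genes HOXA6, HOXA7 and HOXA9 opened at the same dose. HOXA6 reached 6.82 and 13.1 TPM in D8 CT3.0, against 0 and 0.157 TPM in D8 CT2.0 (3.29 ± 0.31, limma adjusted p = 2.05e-08), and 6.6 and 12 TPM in D4 CT3.0, against 0 and 0.114 TPM in D4 CT2.0 (3.23 ± 0.31, limma adjusted p = 9.93e-08). HOXA7 became the most abundant member, with 68.3 and 112 TPM in D8 CT3.0, against 0.0848 and 0.408 TPM in D8 CT2.0 (6.16 ± 0.42, limma adjusted p = 1.48e-10). In D4 CT3.0 it was at 57.1 and 187 TPM and in D4 CT2.0 it was listed at 0 (limma adjusted p = 9.37e-11). HOXA9, which patterns the thoracic cord and the limbs, stood at 53.9 and 78.5 TPM in D8 CT3.0 and at 4.96 and 29.9 TPM in D4 CT3.0, and was listed at 0 in CT2.0 on both days (limma adjusted p = 2.79e-10 on day 8 and 1.39e-06 on day 4). The 2 D4 CT3.0 libraries were thus far apart for HOXA7 and HOXA9, with the second higher for both genes, yet both lay above all CT2.0 libraries.

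HOXA10, a gene of the lumbar cord, was expressed at a low level on day 4. Its values were 1.77 and 1.58 TPM in D4 CT3.0 and 2.18 and 1.31 TPM in D4 CT4.0, and it was listed at 0 in D4 CT2.0 (limma adjusted p = 1.84e-07 for CT3.0). On day 8 it stayed at or below 0.255 TPM in every library. Counting all tested members, 6 were higher and 1 lower in D8 CT3.0 than in D8 CT2.0, where 4.08% of all genes were called higher and 8.79% lower. On day 4, 7 were higher and 1 lower, against 2.04% higher and 1.72% lower of all genes. Against untreated cells 7 members were higher in D8 CT3.0 and in D8 CT4.0, where 3.11% and 3.15% of all genes were, and 8 were higher in D4 CT3.0 and in D4 CT4.0, where 2.87% and 3.31% of all genes were.

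A further step, CT4.0 against CT3.0, called 0 members by limma on either day, where 0.195% (day 8) and 0.0638% (day 4) of all genes were called higher. At an unadjusted p under 0.05, 3 members were higher on day 8 (HOXA4, HOXA5 and HOXA6) and 4 on day 4 (HOXA5, HOXA6, HOXA7 and HOXA9). HOXA5 was at 50.2 and 68.9 TPM in D8 CT4.0, against 26.2 and 46.5 TPM in D8 CT3.0. HOXA7 was at 225 and 338 TPM in D4 CT4.0, against 57.1 and 187 TPM in D4 CT3.0. Every member from HOXA3 to HOXA9 had its highest dose mean at CT4.0 on both days, and the D4 count was 2 without the second D4 CT3.0 library and 1 without the first D4 CT4.0 library, while the D8 count was 1 without the second D8 CT3.0 library.

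Taking as onset the lowest CT dose at which both libraries had at least 1 TPM, the order along the cluster was HOXA2 at 0.8 µM, HOXA3 at 2.0 µM (day 8) or 3.0 µM (day 4), and HOXA4, HOXA5, HOXA6, HOXA7 and HOXA9 together at 3.0 µM. HOXA10 had an onset of 3.0 µM on day 4 and none on day 8, and HOXA11 had none. Spearman's rho between onset dose and position along the cluster was 0.802 on day 8 (7 members) and 0.577 on day 4 (8 members), a description of neighbouring genes measured in the same libraries. The dose series therefore resolved 3 positions on day 8 at this threshold, with HOXA4 to HOXA9 tied. The middle position was HOXA3 alone, and at a threshold of 2 TPM its day 8 onset was also 3.0 µM. On day 4 HOXA3 to HOXA10 were all tied at 3.0 µM.

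**Figure D2:**
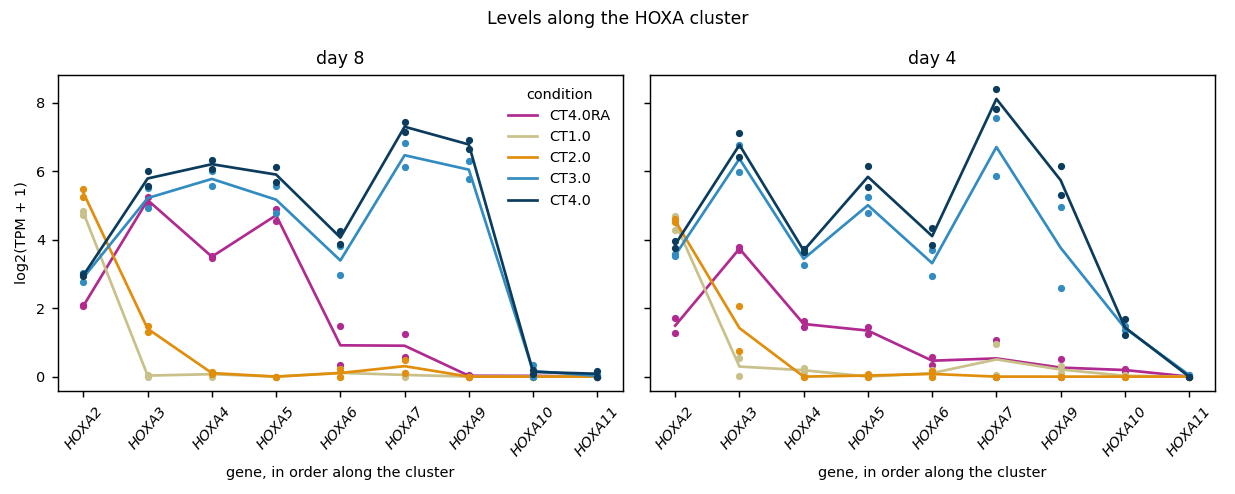
Level (log2(TPM + 1), vertical axis) of the 9 HOXA genes in cluster order (horizontal axis) on day 8 (left) and day 4 (right). Lines join the means of 2 libraries and points are the libraries. At CT1.0 and CT2.0 the profile is high at HOXA2 and low beyond it, and at CT3.0 and CT4.0 it is high up to HOXA9. With RA the profile drops after HOXA5 on day 8, and on day 4 it drops after HOXA3 and stays low.

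Between day 4 and day 8 the members moved in different directions although CT was the same. HOXA4 stood at 66.3 and 80.0 TPM in D8 CT4.0, against 12.2 and 11.5 TPM in D4 CT4.0 (2.53 ± 0.17, limma adjusted p = 5.92e-10), and at 46.1 and 62.7 TPM in D8 CT3.0, against 8.52 and 11.4 TPM in D4 CT3.0 (2.33 ± 0.17, limma adjusted p = 1.30e-09). HOXA9 was higher in D8 CT3.0, at 53.9 and 78.5 TPM, than in D4 CT3.0, at 4.96 and 29.9 TPM (limma adjusted p = 0.000351). In D8 CT4.0 it stood at 99.9 and 119 TPM, against 38.6 and 70.8 TPM in D4 CT4.0, a difference of 1.05 ± 0.43 that did not pass (limma adjusted p = 0.0905).

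HOXA10 fell between the days, to 0.063 and 0.137 TPM in D8 CT4.0, against 2.18 and 1.31 TPM in D4 CT4.0 (-1.30 ± 0.14, limma adjusted p = 5.24e-07). HOXA3 stood at 29.5 and 44.3 TPM in D8 CT3.0, against 61.8 and 107 TPM in D4 CT3.0 (-1.15 ± 0.31, limma adjusted p = 0.00871), without overlap. Its change was -0.93 after TMM rescaling, its adjusted p was 0.162 with a pseudocount of 0.1, and its change was -0.76 without the second D4 CT3.0 library and -0.86 without the first D8 CT3.0 library, so the call depends on these choices. HOXA5 differed by 0.07 ± 0.23 and HOXA6 by -0.04 ± 0.31 between D8 CT4.0 and D4 CT4.0, and neither passed (limma adjusted p = 0.951 and 1). In all, 2 members were higher and 2 lower at CT3.0, against 2.08% and 4.31% of all genes, and 1 was higher and 1 lower at CT4.0, against 1.95% and 3.81%. The count lower at CT4.0 was 3 without the first D4 CT4.0 library and 2 without the second D8 CT4.0 library. In the test of the CT effect on day 8 less that on day 4, HOXA4 and HOXA9 were higher and HOXA10 lower at CT3.0 (1.75% of all genes higher and 7.07% lower), and HOXA4 was higher and HOXA10 lower at CT4.0 (1.67% and 6.52%). Without the first D4 CT3.0 library 3 members were lower in that test at CT3.0, and without the second D8 CT3.0 library 2.

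RA was compared with CT alone at 4.0 µM. On both days CT4.0RA cells expressed the members up to HOXA5, at lower levels than CT4.0 cells, and almost none of the members beyond it. On day 4 only HOXA3 was well above 1 TPM with RA, while HOXA2, HOXA4 and HOXA5 were low. By limma 5 of 8 tested members were lower and 3 were not called on day 8, against 4.33% of all genes lower, and all 8 were lower on day 4, against 4.07%. The median change of the tested members was -1.95 on day 8, where the median of all genes was 0, and -3.34 on day 4, where it was -0.18. TMM rescaling, which sets that median to 0, left these 5 and 8 counts in place, while the calls over all genes on day 4 were 700 higher and 706 lower, against 500 and 1148 on the deposited scale.

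Among the anterior members, HOXA2 stood at 3.23 and 3.16 TPM in D8 CT4.0RA, against 6.92 and 6.63 TPM in D8 CT4.0. The difference of -0.89 ± 0.19 had a limma adjusted p of 0.00102 and did not reach the size threshold. In D4 CT4.0RA it was at 1.41 and 2.27 TPM, against 12.5 and 14.6 TPM in D4 CT4.0 (-2.37 ± 0.19, limma adjusted p = 3.49e-09).

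HOXA3 was at 37.2 and 32.3 TPM in D8 CT4.0RA, against 46.6 and 63.2 TPM in D8 CT4.0, and did not pass (-0.63 ± 0.31, limma adjusted p = 0.156). In D4 CT4.0RA it was at 12.8 and 11.9 TPM, against 84.8 and 138 TPM in D4 CT4.0 (-3.03 ± 0.31, limma adjusted p = 1.44e-07). It was the most abundant member in CT4.0RA cells, with 46.1% of the summed TPM of the 9 genes on day 8 and 65.6% on day 4.

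HOXA4 fell with RA on both days. It was at 10.1 and 10.6 TPM in D8 CT4.0RA, against 66.3 and 80.0 TPM in D8 CT4.0 (-2.71 ± 0.17, limma adjusted p = 3.19e-11), and at 1.71 and 2.11 TPM in D4 CT4.0RA, against 12.2 and 11.5 TPM in D4 CT4.0 (-2.14 ± 0.17, limma adjusted p = 2.34e-09). The groups were far apart on both days.

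HOXA5 stood at 22.2 and 28.7 TPM in D8 CT4.0RA, against 50.2 and 68.9 TPM in D8 CT4.0 (-1.19 ± 0.23, limma adjusted p = 0.000315). In D4 CT4.0RA it was at 1.38 and 1.71 TPM, against 45.1 and 69.8 TPM in D4 CT4.0 (-4.49 ± 0.23, limma adjusted p = 1.88e-12). The groups did not overlap on either day, but the day 8 difference was -0.96, under the size threshold, without the second D8 CT4.0 library.

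Beyond HOXA5 no member exceeded 1.78 TPM in CT4.0RA cells on either day. HOXA6 was at 0.278 and 1.78 TPM in D8 CT4.0RA, against 13.7 and 18.0 TPM in D8 CT4.0 (-3.15 ± 0.31, limma adjusted p = 5.09e-08), and at 0.276 and 0.493 TPM in D4 CT4.0RA, against 13.5 and 19.4 TPM in D4 CT4.0 (-3.64 ± 0.31, limma adjusted p = 8.77e-09). HOXA7 was at 0.481 and 1.36 TPM in D8 CT4.0RA, against 141 and 174 TPM in D8 CT4.0 (-6.40 ± 0.42, limma adjusted p = 8.89e-11), and at 0 and 1.09 TPM in D4 CT4.0RA, against 225 and 338 TPM in D4 CT4.0 (-7.58 ± 0.42, limma adjusted p = 8.68e-12). No library of either gene in CT4.0RA came near the lowest CT4.0 library.

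HOXA9 was at 0 and 0.0356 TPM in D8 CT4.0RA, against 99.9 and 119 TPM in D8 CT4.0 (-6.76 ± 0.43, limma adjusted p = 5.01e-11), and at 0 and 0.44 TPM in D4 CT4.0RA, against 38.6 and 70.8 TPM in D4 CT4.0 (-5.47 ± 0.43, limma adjusted p = 2.54e-09). HOXA10 was at 0.162 and 0.124 TPM in D4 CT4.0RA, against 2.18 and 1.31 TPM in D4 CT4.0 (-1.25 ± 0.14, limma adjusted p = 7.24e-07). The depth behind a TPM value is not known, so a listed 0 sets no limit on the level.

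In CT4.0RA cells HOXA3, HOXA4 and HOXA5, which were already above 1 TPM on day 4, were higher on day 8. HOXA5 was at 22.2 and 28.7 TPM in D8 CT4.0RA, against 1.38 and 1.71 TPM in D4 CT4.0RA (3.37 ± 0.23, limma adjusted p = 3.27e-10). HOXA4 rose by 1.96 ± 0.17 (limma adjusted p = 1.01e-08) and HOXA3 by 1.42 ± 0.31 (limma adjusted p = 0.00156), so 3 of 8 members were higher and 0 lower, against 3.26% of all genes higher. HOXA6, HOXA7 and HOXA9 differed by 0.45 ± 0.31, 0.37 ± 0.42 and -0.24 ± 0.43 and did not pass. HOXA2 differed by 0.58 ± 0.19 (limma adjusted p = 0.0323), below the size threshold, so the change was largest at HOXA5 and smaller on either side of it. Spearman's rho with position along the cluster (8 members) was -0.738 for this change, -0.286 (day 8) and -0.214 (day 4) for CT4.0RA against CT4.0, and -0.024 for day 8 against day 4 at CT3.0 and at CT4.0.

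The RA effect itself was set against the day in one test. The fall with RA was smaller on day 8 for HOXA2 (difference of effects 1.48 ± 0.27), HOXA3 (2.40 ± 0.44), HOXA5 (3.30 ± 0.32) and HOXA10 (1.13 ± 0.20), which is 4 of 8 members higher against 5.56% of all genes. HOXA10 was already at 0.063 and 0.137 TPM in D8 CT4.0, and its difference of effects was 0.9, under the size threshold, without the first D4 CT4.0 library. For HOXA4 (-0.57 ± 0.24), HOXA6 (0.49 ± 0.44), HOXA7 (1.18 ± 0.60) and HOXA9 (-1.28 ± 0.61) the difference of effects did not pass (limma adjusted p = 0.121, 0.555, 0.219 and 0.183).

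**Figure D3:**
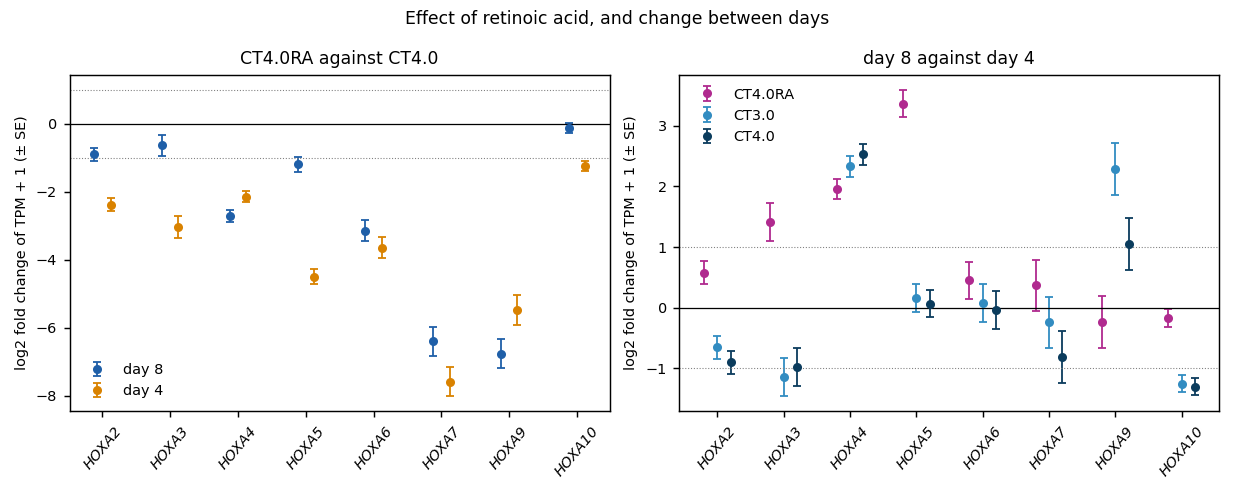
Log2 fold changes of TPM + 1 with their SE (vertical axes) for the 8 tested members in cluster order (horizontal axes), dotted lines marking the size threshold of 1. Left, CT4.0RA against CT4.0, where HOXA2, HOXA3 and HOXA5 lie nearer to 0 on day 8 than on day 4 while HOXA7 and HOXA9 lie below -5 on both days; right, day 8 against day 4 within CT4.0RA, CT3.0 and CT4.0, where HOXA5 is highest with RA and HOXA4 is above 1 in all 3 conditions.

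The make-up of the HOXA RNA pool followed these shifts. The summed TPM of the 9 genes was 73.4 and 77.9 in D8 CT4.0RA, against 424 and 530 in D8 CT4.0, and 17.7 and 20.1 in D4 CT4.0RA, against 434 and 663 in D4 CT4.0. HOXA7 held 33.0% of the sum in D8 CT4.0 and 51.4% in D4 CT4.0, while HOXA9 held 23.0% and 9.79%, and HOXA4 15.4% and 2.26%. In D8 CT4.0RA the largest shares were those of HOXA3 (46.1%), HOXA5 (33.5%) and HOXA4 (13.6%). In bulk RNA, fewer cells that express a gene and less of its RNA per cell cannot be told apart. Markers of cell types also differed between these groups: PAX6 was at 326 and 327 TPM in D8 CT4.0RA, against 1.29 and 1.78 TPM in D8 CT4.0, and TBXT, a mesoderm and tail bud marker, was listed at 0 in D8 CT4.0RA, against 21.3 and 23.2 TPM in D8 CT4.0. The summed TPM of the neural progenitor markers (6 genes) was 793 to 800 in D8 CT4.0RA, against 271 in both D8 CT4.0 libraries. SOX1, SOX3, PAX6, NES and MSI1 were higher with RA, while SOX2 was lower, at 106 to 108 TPM against 141 to 147 TPM. The neuron markers (5 genes) summed to 367 to 405 TPM in D8 CT4.0RA, against 186 to 192 TPM. Most of both sums was TUBB3 (means of 290 TPM with RA and 152 TPM without). TUBB3, STMN2, DCX and INA were higher with RA, while ELAVL4 was lower, at 2.0 to 2.23 TPM against 3.64 to 5.06 TPM. The mesoderm markers (5 genes) summed to 11 to 16.8 TPM in D8 CT4.0RA, against 24.7 to 25.6 TPM in D8 CT4.0. They went both ways: TBXT, MSGN1 and TBX6 were lower with RA, TBXT and MSGN1 at 0. MEOX1 was higher, at 8.51 to 15.0 TPM against at most 0.0254 TPM, and made up most of the sum with RA. TCF15 was also higher, at 1.49 to 1.83 TPM against 0.798 to 0.823 TPM. The neural crest markers (4 genes) summed to 13.8 to 14 TPM in D8 CT4.0RA, where SOX10 and FOXD3 were at 0, against 11.9 to 12.4 TPM. Endoderm markers summed to at most 1.51 TPM and surface ectoderm markers to at most 2.28 TPM in any library. The pluripotency markers summed to 36 to 38 TPM in D8 CT4.0RA and 50.5 to 53.8 TPM in D8 CT4.0, against 3150 to 3210 TPM at day 0. Nearly all of these day 8 sums was DPPA4 (means of 36.0 TPM with RA and 50.2 TPM without). POU5F1 had means of 0.751 and 1.78 TPM there, and NANOG 0.167 and 0.132 TPM. Ribosomal protein genes made up 38.6% of all TPM in D8 CT4.0RA and 29.7% in D8 CT4.0. The part of these differences in the HOXA results was not tested.

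Overlapping transcripts limit how far single members can be read. In GENCODE v29, 62.5% of the exonic bases of HOXA7 and 39.3% of those of HOXA6 lie within exons of HOXA-AS3, an antisense RNA of the cluster, and the sources used here do not say whether strand was used. HOXA-AS3 stood at 11.6 and 17.0 TPM in D8 CT4.0RA, against 280 and 308 TPM in D8 CT4.0. On day 4 it was at 4.24 and 23.8 TPM in CT4.0RA, against 490 and 586 TPM in CT4.0, so it moved with both genes. Whether reads from the shared bases were kept apart from those of HOXA-AS3 is not known. HOXA4 shares 47.3% of its exonic bases with other transcripts, HOXA11 31.1%, HOXA9 27.0%, HOXA10 26.3% and HOXA3 17.9%. Part of this lies on the same strand, where strand could not separate the reads: 31.0% of the bases of HOXA4, 15.9% of HOXA9, 9.93% of HOXA10, 9.24% of HOXA3 and 4.44% of HOXA6. HOXA2 and HOXA5 share none, so the onset of HOXA2 at 0.8 µM, that of HOXA5 at 3.0 µM and the presence of HOXA5 in CT4.0RA cells rest on unshared bases.

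Of the noncoding RNAs of the cluster, 1 opened with HOXA2 and the others at 3.0 µM CT or not at all. HOTAIRM1, which is transcribed from the HOXA2 end, had an onset of 0.8 µM CT on both days, the same as HOXA2, and stood at 189 and 218 TPM in D8 CT0.8, against 0 and 0.397 TPM in D8 CT0.0. It did not fall with RA, at 560 and 472 TPM in D8 CT4.0RA, against 383 and 445 TPM in D8 CT4.0 (0.32 ± 0.23, limma adjusted p = 0.383). HOXA-AS2, which lies next to HOXA3, opened at 3.0 µM and was at 83.7 and 66.6 TPM in D8 CT4.0RA, against 90.2 and 96.2 TPM in D8 CT4.0 (-0.32 ± 0.24, limma adjusted p = 0.410). HOXA-AS3, next to HOXA6 and HOXA7, opened at 3.0 µM and fell by 4.29 ± 0.41 with RA on day 8 (limma adjusted p = 2.91e-08). HOXA10-AS was listed at 0 in D8 CT4.0RA and stood at 12.8 and 18.9 TPM in D8 CT4.0 (limma adjusted p = 1.73e-11). It had an onset of 3.0 µM on day 8 and none on day 4, the reverse of HOXA10.

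Of the 6 such RNAs 4 were tested, and 2 were lower and 2 not called with RA on day 8, where 4.33% of all genes were lower. HOTTIP and HOXA11-AS, at the HOXA11 end, had no onset on either day.

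The genes that flank the cluster differed from each other. SKAP2, an adaptor protein gene beyond the HOXA2 end, was at 24.6 and 30.3 TPM in D8 CT4.0, against 0.931 and 1.07 TPM in D8 CT0.0 (3.82 ± 0.27, limma adjusted p = 1.85e-10), and at 27.2 and 23.6 TPM in D8 CT4.0RA. EVX1, a homeobox gene beyond the HOXA11 end, did not pass the filter and was highest at 3.5 TPM in 1 D4 CT4.0 library. Apart from that library, EVX1 stayed under 1 TPM. SKAP2 did not simply follow the members: it was at 2.09 and 2.59 TPM at day 0, where no member reached 1 TPM. On day 4 SKAP2 was at 29.6 and 33.2 TPM in CT4.0RA, against 17.8 and 18.2 TPM in CT4.0, while the tested members were lower with RA. That SKAP2 difference was called higher after TMM rescaling (1.07) and not on the deposited scale.

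The other HOX clusters were set beside HOXA by the same rule. On day 8 the HOXB genes HOXB2, HOXB3 and HOXB9 opened at 2.0 µM, as HOXA3 did, and 5 of 8 HOXB genes opened at 3.0 µM. HOXB9 was close to the threshold in 1 D8 CT2.0 library (1.05 and 7.98 TPM), and its onset was 3.0 µM on day 4. HOXC4 also opened at 2.0 µM on day 8 (3.8 and 2.25 TPM). HOXB2 stood at 84.2 and 85.5 TPM in D8 CT2.0 and at 38.5 and 41.9 TPM in D8 CT3.0, so that it too had its peak at 2.0 µM. HOXB3 (8.77 ± 0.30) and HOXB9 (7.29 ± 0.51) had the largest called HOXB changes between D8 CT4.0 and D8 CT0.0 besides HOXB7, which was listed at 0 in untreated cells.

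With RA on day 8 the clusters differed in how many genes were called. HOXB had 2 of 8 genes lower and a median change of -0.35: HOXB7, the paralog of HOXA7, was at 4.51 and 4.31 TPM in D8 CT4.0RA, against 244 and 272 TPM in D8 CT4.0 (-5.58 ± 0.25, limma adjusted p = 1.66e-13), and HOXB5 fell by 1.19 ± 0.16. HOXB9 was at 191 and 244 TPM, against 185 and 166 TPM in D8 CT4.0, and did not pass (0.30 ± 0.51), whereas its paralog HOXA9 was close to absent with RA. HOXC had 6 of 6 tested genes lower, among them HOXC6 (-5.17 ± 0.28) and HOXC8 and HOXC9, which were listed at 0 in D8 CT4.0RA, against 66.3 to 78.6 TPM and 43.1 to 60.5 TPM in D8 CT4.0. HOXD4 was higher, at 226 and 211 TPM in D8 CT4.0RA, against 48.8 and 58.3 TPM in D8 CT4.0 (2.01 ± 0.23), while HOXA4 fell. On day 4, 7 of 8 HOXB genes were lower with RA on the deposited scale and 2 after TMM rescaling (HOXB7 and HOXB8), and 5 of 6 HOXC genes were lower. The difference between clusters was not tested.

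Among the 15 tested regulators upstream of HOX genes, 5 were higher and none lower in D8 CT4.0 than in untreated cells, against 3.15% of all genes higher and 12.7% lower. In D8 CT4.0RA 6 were higher and 5 lower than in D8 CT4.0 (7 higher after TMM rescaling), against 4.54% and 4.33% of all genes. CDX2, the caudal homeobox factor, opened on day 8 at the same dose as HOXA4 to HOXA9: it was at 55.4 and 84.2 TPM in D8 CT3.0 and 122 and 140 TPM in D8 CT4.0, against 0.0174 and 0.0326 TPM in D8 CT2.0. With RA it was at 0.502 and 0.952 TPM on day 8 (-6.26 ± 0.20, limma adjusted p = 1.06e-15) and at 7.72 and 8.09 TPM on day 4 (-4.33 ± 0.20, limma adjusted p = 6.79e-13). Its relative CDX1 went the other way, at 70.2 and 84.9 TPM in D8 CT4.0RA, against 0.352 and 1.29 TPM in D8 CT4.0 (5.47 ± 0.28), and at 249 and 257 TPM in D4 CT4.0RA, against 10.5 and 22.0 TPM in D4 CT4.0 (3.96 ± 0.28).

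The growth factor FGF8 was at 0.75 and 0.993 TPM in D8 CT4.0RA, against 382 and 408 TPM in D8 CT4.0 (-7.73 ± 0.27), and was higher in D8 CT4.0 than in untreated cells (2.78 ± 0.27), as was GBX2, a hindbrain homeobox gene (2.83 ± 0.23). CYP26A1, the enzyme that breaks down RA, was at 217 and 260 TPM in D8 CT4.0RA, against 0.236 and 0.411 TPM in D8 CT4.0 (7.50 ± 0.33). On day 4 it was also high at the lower CT doses at which HOXA2 was on: 120 and 199 TPM in D4 CT0.8 and 143 and 117 TPM in D4 CT2.0, against 0.683 and 0.562 TPM in D4 CT0.0.

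HOX proteins bind DNA together with cofactors of the PBX, MEIS and PKNOX families. Of 9 tested, 5 were lower and none higher in D8 CT4.0 than in D8 CT0.0 (4 after TMM rescaling), where 12.7% of all genes were lower: PBX3 was at 0.614 and 1.36 TPM, against 59.6 and 60.7 TPM (-4.97 ± 0.34), MEIS2 fell by 3.87 ± 0.35 and PKNOX2 by 1.93 ± 0.24. With RA on day 8, 6 were higher and 1 lower, where 4.54% of all genes were higher: MEIS2 was at 143 and 149 TPM in D8 CT4.0RA, against 5.73 and 1.0 TPM in D8 CT4.0 (5.32 ± 0.35), PKNOX2 rose by 3.40 ± 0.24 and MEIS1 by 3.37 ± 0.34. In D8 CT4.0 cells the cluster was thus open up to HOXA9 with PBX3 and MEIS2 at 0.614 to 5.73 TPM, and in D8 CT4.0RA cells it was open up to HOXA5 with PBX3 at 8.17 and 8.7 TPM.

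**Figure D4:**
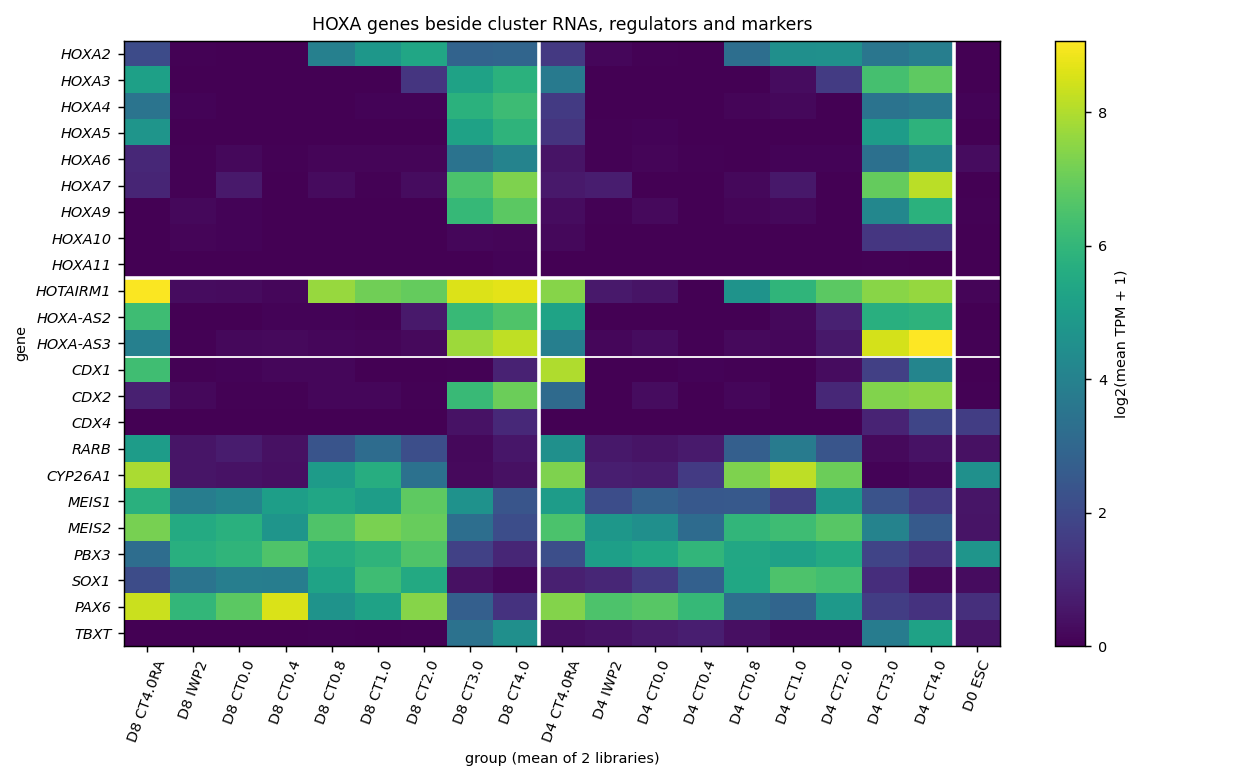
Mean level (log2(mean TPM + 1), colour) of the 9 HOXA genes, 3 RNAs of the cluster, and regulators, cofactors and markers (rows) in the 19 groups (columns, day 8 left of day 4 and day 0). HOTAIRM1 is bright wherever HOXA2 is on, CDX2 and TBXT are bright in the CT3.0 and CT4.0 columns with HOXA6 to HOXA9, and CDX1, CYP26A1 and PAX6 are bright in CT4.0RA.

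Over the 19 group means of log2(TPM + 1) the members fell into patterns that a correlation describes, given with no p because the groups are doses and days of 1 experiment and not independent samples. HOXA6 and HOXA7 had a Pearson's r of 0.993, HOXA6 and HOXA9 0.976, and HOXA7 and HOXA9 0.972, the first pair sharing exonic bases with 1 antisense RNA. HOXA3 and HOXA5 had an r of 0.963, and HOXA4 and HOXA5 0.961. Pairs across these sets were also close: HOXA5 and HOXA6 had an r of 0.94 and HOXA3 and HOXA6 0.895. The lowest r among HOXA3 to HOXA9 was 0.809 (HOXA3 and HOXA9). HOXA2 stood apart, with an r of 0.22 to 0.32 to the other 7 tested members. HOXA10 was nearest to HOXA7 (0.747).

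Outside the HOX clusters, 15481 protein-coding genes were ranked by their likeness to each member over the same 19 groups. Nearest to HOXA2 were PRMT8, an arginine methyltransferase gene (0.885), and NTRK2, a neurotrophin receptor gene (0.878). Nearest to HOXA3 were STRA6, a retinol transporter gene (0.944), and SKAP1 (0.934), nearest to HOXA4 were ASCL2 (0.929) and TAF1D (0.927), and nearest to HOXA5 were ASCL2 (0.948) and PRPH (0.927).

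TBXT, the brachyury gene, was nearest to HOXA6 (0.975), HOXA7 (0.981) and HOXA9 (0.963), followed by CDX2 for HOXA6 (0.97), URAD for HOXA7 (0.972) and HES7, a gene of the somite clock, for HOXA9 (0.952). PLAC1 (0.943) and a gene known by a clone name (0.921) were nearest to HOXA10. Among the 2 nearest genes of each member, none was shared between HOXA2 or HOXA3 and the trunk members HOXA6 to HOXA9. A list of 2 genes a member is too short to show whether these patterns are separate.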

How the data were processed

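Poly(A) RNA of 38 libraries was sequenced as paired-end reads. Salmon 0.8.2, CASAVA 1.7 and the hg38 build are named, per the submitters' processing notes; settings, annotation release and strandedness were not stated in the sources used. The authors deposited TPM per gene (a length-corrected share of each library's transcripts), which keeps no depth and makes each value relative to all others in its library. Levels are that deposited TPM. From it log2(TPM + 1) was computed for the 28221 genes reaching 1 TPM in 2 or more libraries, and limma 3.58.1 (R 4.3.3) was fitted once over all 19 groups (moderated variance with a mean trend, 19 residual degrees of freedom, 40 contrasts). P-values were adjusted over all genes tested (Benjamini-Hochberg). The fold changes understate those of low genes. Fits were tested on simulated data. With 2 libraries a group, p-values measure the spread between these cultures of 1 cell line. The fit gives each gene 1 variance over all 19 groups, and groups where a gene is nearly absent add little spread. HOXA7 reached 1 TPM in 10 of 38 libraries, yet its D4 CT3.0 libraries stood at 57.1 and 187 TPM. For such members the SE can understate the spread in the groups that express them, and the p-values can be too small.

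Named beside the members were the 2 protein-coding genes most like each member and, of each list, the 3 largest called changes in D8 CT4.0RA against D8 CT4.0 and in D8 CT4.0 against D8 CT0.0. Lists covered cluster RNAs, flanking genes, HOXB, HOXC, HOXD, upstream regulators, cofactors and cell type markers. The members and lists were chosen with earlier results of these data known. Alternatives were a pseudocount of 0.1, no filter, TMM rescaling (trimmed mean of M values, used as a scaling of TPM), a replicate block, only the days compared, other onset thresholds and leaving out each library.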

Additional observations from a re-analysis of the deposited data

Results flagged for a closer look

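These results differ between day 8 and day 4 by a test of the difference of effects (limma, Benjamini-Hochberg adjusted p). The RA effect, CT4.0RA against CT4.0, was higher on day 8, that is a smaller fall, for HOXA2 by 1.48 ± 0.27 (adjusted p = 0.000486), for HOXA3 by 2.40 ± 0.44 (adjusted p = 0.00052), for HOXA5 by 3.30 ± 0.32 (adjusted p = 3.24e-07) and for HOXA10 by 1.13 ± 0.20 (adjusted p = 0.000393). HOXA5 fell by 1.19 on day 8 and by 4.49 on day 4, with no overlap between CT4.0RA and CT4.0 libraries on either day.

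The effect of CT against untreated cells was higher on day 8 for HOXA4, by 2.33 ± 0.24 at CT3.0 (adjusted p = 5.44e-07) and by 2.53 ± 0.24 at CT4.0 (adjusted p = 2.02e-07). For HOXA9 it was higher by 2.41 ± 0.61 at CT3.0 (adjusted p = 0.00702). For HOXA10 it was lower on day 8, by -1.33 ± 0.20 at CT3.0 (adjusted p = 6.01e-05) and by -1.38 ± 0.20 at CT4.0 (adjusted p = 4.22e-05). HOXA4 was listed at 0 in untreated cells of both days, so its difference of effects equals the day 8 to day 4 change within the CT group. At CT2.0, 0 members differed between the days in this test.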

How the results depend on the processing

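Of 89 member calls, 79 kept their direction and their call under every alternative run, and none of 837 recomputed values reversed. Leaving out 1 library gave ranges of called members of 1 to 2 for D4 CT2.0 against D4 CT0.0 (higher), 0 to 1 for D4 CT1.0 against D4 CT0.8 (higher), D4 CT2.0 against D4 CT1.0 (higher), D4 CT3.0 against D4 CT2.0 (lower), D8 CT2.0 against D8 CT1.0 (higher), D8 CT4.0 against D8 CT3.0 (higher) and D8 CT0.8 against D4 CT0.8 (higher), 0 to 2 for D4 CT4.0 against D4 CT3.0 (higher), 1 to 2 for D8 CT3.0 against D4 CT3.0 (lower), 1 to 3 for D8 CT4.0 against D4 CT4.0 (lower) and 1 to 3 for the CT3.0 effect on day 8 less day 4 (lower). D4 CT2.0 against D4 CT1.0 gave 0 in place of 1 with no filter (HOXA3 adjusted p = 0.053) and with only the day 4 libraries (adjusted p = 0.18). D8 CT3.0 against D4 CT3.0 gave 1 lower in place of 2 with a pseudocount of 0.1 and with TMM rescaling (HOXA3), D8 CT4.0 against D4 CT4.0 gave 2 higher in place of 1 with TMM rescaling, and the CT3.0 effect on day 8 less day 4 gave 1 higher in place of 2 with a pseudocount of 0.1 (HOXA9 adjusted p = 0.108). HOXA3 in D8 CT4.0RA against D4 CT4.0RA had an adjusted p of 0.0733, and the RA difference of effects of HOXA10 one of 0.0507, with a pseudocount of 0.1. The onset of HOXA3 was 2.0 µM on day 4 at a threshold of 0.5 TPM and 3.0 µM on day 8 at 2 TPM, where HOXA10 had none. Where these moved, the cause was not tested.

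Over all tested genes the replicate numbers did not pair the libraries. None of 171 pairs of groups had correlated deviations over 0.1 (highest 0.0372). That correlation cannot show whether a small set of genes was paired. HOXA3, HOXA5, HOXA6, HOXA7 and HOXA9 were higher in the second library of CT3.0 and of CT4.0 on both days. HOXA2, HOXA4 and HOXA10 were not higher in the second library of all these groups. A replicate block changed no call, with 8 members lower in D4 CT4.0RA and 5 in D8 CT4.0RA than in CT4.0.

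TMM rescaling moved counts over all genes by over 1.5 times. D8 CT4.0 against D8 CT0.0 had 889 higher and 3580 lower, and 1556 and 1885 with TMM, and D8 CT3.0 against D8 CT0.0 had 877 and 3708, and 1613 and 1924 with TMM. D8 CT4.0 against D4 CT4.0 had 551 and 1074, and 853 and 666 with TMM, and D8 CT3.0 against D4 CT3.0 had 588 and 1215, and 899 and 741 with TMM. The RA effect on day 8 less day 4 had 1570 and 441, and 1176 and 778 with TMM, the CT3.0 effect on day 8 less day 4 had 495 and 1994, and 785 and 1197 with TMM, and the CT4.0 effect had 472 and 1839, and 717 and 1065 with TMM. Lower calls against untreated cells were 443, 1068 and 1087 in D4 CT0.4, CT1.0 and CT2.0, and 248, 531 and 713 with TMM, and 1226 in D8 CT2.0, and 790 with TMM. Higher calls in D4 IWP2 were 45, and 27 with TMM or with only the day 4 libraries. D4 CT4.0 against D4 CT3.0 had 18 higher, and 6 with a pseudocount of 0.1 and 9 with only the day 4 libraries. The step from CT2.0 to CT3.0 on day 8 had 1152 higher and 2480 lower, and 1670 and 1923 with TMM. On the deposited scale the median of all genes was shifted by -0.27 in D8 CT4.0 and -0.28 in D8 CT3.0 against untreated cells. With a pseudocount of 0.1 the lower calls for day 8 against day 4 were 1724 (CT4.0) and 1959 (CT3.0). Leaving out 1 library also moved small counts over all genes by over 1.5 times. D4 CT4.0 against D4 CT3.0 had 18 higher, and 3 without the first D4 CT3.0, 43 without the second D4 CT3.0 and 64 without the first D4 CT4.0 library. D8 CT4.0 against D8 CT3.0 had 55 higher, and 29 without the first D8 CT3.0 and 138 without the first D8 CT4.0 library. D4 CT1.0 against D4 CT0.8 had 54 higher, and 17 without the first D4 CT0.8 and 107 without the first D4 CT1.0 library. IWP2 against untreated cells had 45 higher and 35 lower on day 4, and up to 102 (without the second D4 IWP2 library) and 81 (without the first D4 CT0.0 library), and 55 higher and 65 lower on day 8, and up to 101 (without the second D8 IWP2 library) and 141 (without the second D8 CT0.0 library).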
